A study of Arabidopsis thaliana with 9 samples.

Results

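The genes described here are 59 nuclear genes of Arabidopsis thaliana seedlings whose transcripts were at least 2-fold higher than in wild type in each of a pair of light-signalling mutants, hy5 and bbx202122. A gene was taken where its mean was at least 1 CPM (counts scaled to the same total of 1e6 in every library) in each mutant, where each mutant mean was at least 2 times the WT mean, and where all 6 mutant libraries lay above all 3 WT libraries. Of 24640 genes listed in the files, 24436 were nuclear and 59 met the rule. The genes were thus chosen by their measured levels in the mutants and in WT, and those levels are given as a description. The direct difference between the mutants was not itself a criterion of the rule and was tested, in the libraries that also chose the genes. The rule cut the levels of both mutants, so the choice of genes can shape this difference.

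The 3 groups were WT of the Col-0 ecotype, the bbx202122 mutant of the related genes BBX20, BBX21 and BBX22, and the hy5 mutant, with 3 libraries of whole seedlings each. All seedlings had the same treatment: seeds on half-strength MS medium with no sucrose were cold-treated for 2 days at 4 °C, lit with white light of 90 µmol per square metre and second for 2 h and put back in the dark for 22 h. They then stood in red light of 80 µmol per square metre and second at 22 °C for 3 days, and their age was given as 4 days. The labels do not give the mutant alleles or the ecotype of the mutants. They also do not say whether replicates came from separate cultures, so p-values here cover only the spread between libraries, which may be technical.

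HY5 is a bZIP transcription factor that accumulates in light and promotes the change from growth in the dark to growth in light. It binds G-box sequences (CACGTG) in promoters. The B-box zinc finger family includes BBX20, BBX21 and BBX22, which are known as partners of HY5, and seedlings that lack either function have longer hypocotyls in light. Stem elongation in such seedlings involves cell wall loosening enzymes, auxin response genes and PIF transcription factors, which are bHLH proteins that bind G-boxes and the related sequence CACATG.

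Library totals lay between 21.6 and 22.8 in units of 1e6 expected counts, so that 3 counts in a library correspond to 0.132 to 0.139 CPM. BBX22 (named LZF1 in the annotation) had 29.6, 29.6 and 28.4 CPM in WT and 3.03, 2.70 and 2.50 CPM in bbx202122, and BBX21 fell from a mean of 101 to 26.2 CPM. BBX20 (BZS1) had 4.61 ± 0.42 CPM in WT and 4.18 ± 0.23 in bbx202122 (SD, n = 3), a difference that did not pass the test (edgeR, adjusted p = 0.475). In hy5, BBX20 was lower than in WT, at 2.08 CPM (edgeR, adjusted p = 3.27e-05). BBX21 was higher there, at 134 CPM (adjusted p = 5.24e-05), and BBX22 was at 29.0 CPM (adjusted p = 0.604). HY5 transcripts were at 16.9 CPM in WT and 7.99 CPM in hy5, and also at 6.45 CPM in bbx202122. Summed levels of 5 photosynthetic markers were 23891 to 27728 CPM in the WT libraries, 19405 to 22658 in bbx202122 and 21455 to 22118 in hy5. Root hair markers had summed levels of 206 to 220 CPM in the WT libraries, 99.7 to 121 in bbx202122 and 69.9 to 101 in hy5, and all 5 of them (EXPA7, EXPA18, SHV2, LRX1, PRP3) fell in both mutants. Seed markers summed to 14.3 to 56.4 CPM in the WT libraries, 10.2 to 21.9 in bbx202122 and 49.5 to 78.8 in hy5. None of these markers was at 0 in a genotype, and their part in the levels given here was not tested. In whole seedlings, more cells of a type and more RNA per cell cannot be told apart.

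Promoters are shown first because both HY5 and the PIF proteins read short sequences there. The letters come from the TAIR10.1 assembly of RefSeq, 5′ to 3′ on the gene's own strand, and the motifs were searched on both strands from 250 bases before to 50 bases after the annotated start. A G-box (CACGTG) lay in this window in 5 of the 59 genes (8.47%), beside 8.86% of the 20617 tested nuclear genes with a window. PRP2, a proline-rich cell wall protein, GLYI7, of the glyoxalase I family, PP2-A13, a phloem protein 2 relative, DIN11, a dark-inducible oxygenase, and AT4G37220, of a cold acclimation protein family, held it. The sites are given with 10 bases on each side and the G-box in capitals.
PRP2, chr2:9062098-9062123, minus strand: tataaatataCACGTGaggcgatctc
GLYI7, chr1:30150722-30150747, plus strand: ttagttgattCACGTGttctttgtgt
PP2-A13, chr3:22602732-22602757, plus strand: ttgactacaaCACGTGtaatgtaatg
DIN11, chr3:18393510-18393535, plus strand: aactaacttaCACGTGatgataaaca
DIN11, chr3:18393732-18393757, plus strand: tatgatttccCACGTGggctgctccg
AT4G37220, chr4:17514895-17514920, plus strand: ttggggaagcCACGTGtcaaatctat

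CACATG, read as CATGTG on the other strand, was held by 6 of the 59 genes (10.2%) and by 13.1% of tested genes. IAA6, an auxin-response repressor, carried it at 2 places, and XTH18, a cell wall enzyme, at 1. The 250 bases before the start of IAA6, XTH18 and AT4G37220 are printed to show these sites in place, in capitals. Those of ST2A and TCH4, which are among the genes described in most detail, hold neither CACGTG nor CACATG and are shown beside them.
IAA6, chr1:19673653-19673902, minus strand: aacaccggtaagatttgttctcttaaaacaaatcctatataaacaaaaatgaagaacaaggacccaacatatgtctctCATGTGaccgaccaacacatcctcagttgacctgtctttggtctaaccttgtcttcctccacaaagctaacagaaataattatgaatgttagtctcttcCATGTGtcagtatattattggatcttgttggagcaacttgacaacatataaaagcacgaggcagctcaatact
XTH18, chr4:14827212-14827461, minus strand: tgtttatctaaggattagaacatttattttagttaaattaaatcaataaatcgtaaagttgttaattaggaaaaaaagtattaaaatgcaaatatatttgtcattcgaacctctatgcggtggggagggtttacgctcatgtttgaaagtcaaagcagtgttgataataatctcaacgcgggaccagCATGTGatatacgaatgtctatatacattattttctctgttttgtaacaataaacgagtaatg
AT4G37220, chr4:17514792-17515041, plus strand: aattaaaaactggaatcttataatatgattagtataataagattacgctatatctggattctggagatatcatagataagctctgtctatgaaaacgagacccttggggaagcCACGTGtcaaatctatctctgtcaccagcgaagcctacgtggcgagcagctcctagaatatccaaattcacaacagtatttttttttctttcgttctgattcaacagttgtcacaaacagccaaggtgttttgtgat
ST2A, chr5:2176447-2176696, minus strand: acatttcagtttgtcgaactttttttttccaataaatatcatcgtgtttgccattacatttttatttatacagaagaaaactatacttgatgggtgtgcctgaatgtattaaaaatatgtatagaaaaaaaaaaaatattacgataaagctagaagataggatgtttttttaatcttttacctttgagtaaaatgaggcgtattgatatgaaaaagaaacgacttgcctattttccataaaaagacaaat
TCH4, chr5:23308681-23308930, minus strand: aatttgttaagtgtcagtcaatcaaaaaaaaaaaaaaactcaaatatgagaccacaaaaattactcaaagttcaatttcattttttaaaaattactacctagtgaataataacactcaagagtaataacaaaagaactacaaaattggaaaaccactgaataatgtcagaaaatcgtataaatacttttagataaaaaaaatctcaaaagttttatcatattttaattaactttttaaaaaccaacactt

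Among the other motifs searched, GATAAG (the I-box of light-regulated promoters) lay in 22.0% of the 59 windows and in 14.8% of tested genes. TTGAC, the core of the W-box bound by WRKY factors, lay in 62.7% and 51.0%. TATCCA, a sugar-related motif, lay in 20.3% and 16.5%, and CGTGNG, a brassinosteroid-related motif whose leading letters CGTG are also the end of CACGTG, lay in 20.3% and 15.8%. TGTCTC, the auxin response element, lay in 10.2% and 13.8%, CCGAC, of dehydration and cold genes, in 10.2% and 15.9%, and AAAATATCT, the evening element, in 1.69% and 2.98%. These shares are descriptions of letters in the window, with no test, and a match is not a bound site.

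**Figure D1:**
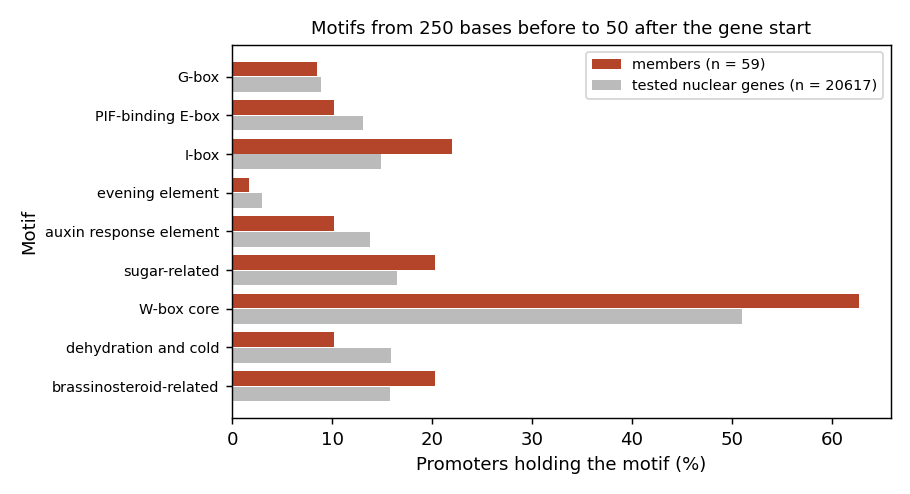
Share of promoters, in percent on the horizontal axis, that hold each of 9 motifs from 250 bases before to 50 bases after the gene start, for the 59 genes (red) and for 20617 tested nuclear genes (grey). The G-box share is 8.47% beside 8.86%, and the W-box core share is 62.7% beside 51.0%.

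The 59 genes together made up a small part of each library. Their summed level was 883, 745 and 985 CPM in the WT libraries, 1826, 2096 and 1888 CPM in bbx202122, and 2363, 2446 and 2306 CPM in hy5. A few abundant genes dominate it: the top 2 held 31.2% to 38.9% of the sum over the libraries, and the top 10 held 69.3% to 75.5%. The sums of hy5 lay above those of bbx202122. The rule itself sets WT below both mutants, in these sums and wherever WT is given as apart from the mutants below. Relative to WT means, the ratio of single genes ran from 2.00 to 13.1 in bbx202122, with a median of 2.56, and from 2.01 to 36.6 in hy5, with a median of 3.16. In bbx202122 44 of the genes were from 2-fold to under 3-fold higher and 7 were at 4-fold or more, whereas in hy5 these counts were 28 and 15. All 59 were called higher in both comparisons with WT, where the share of all tested genes called higher was 8.61% for bbx202122 and 19.6% for hy5 (called lower, 8.25% and 19.8%). Since those comparisons chose the genes, nothing is read from that count.

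**Figure D2:**
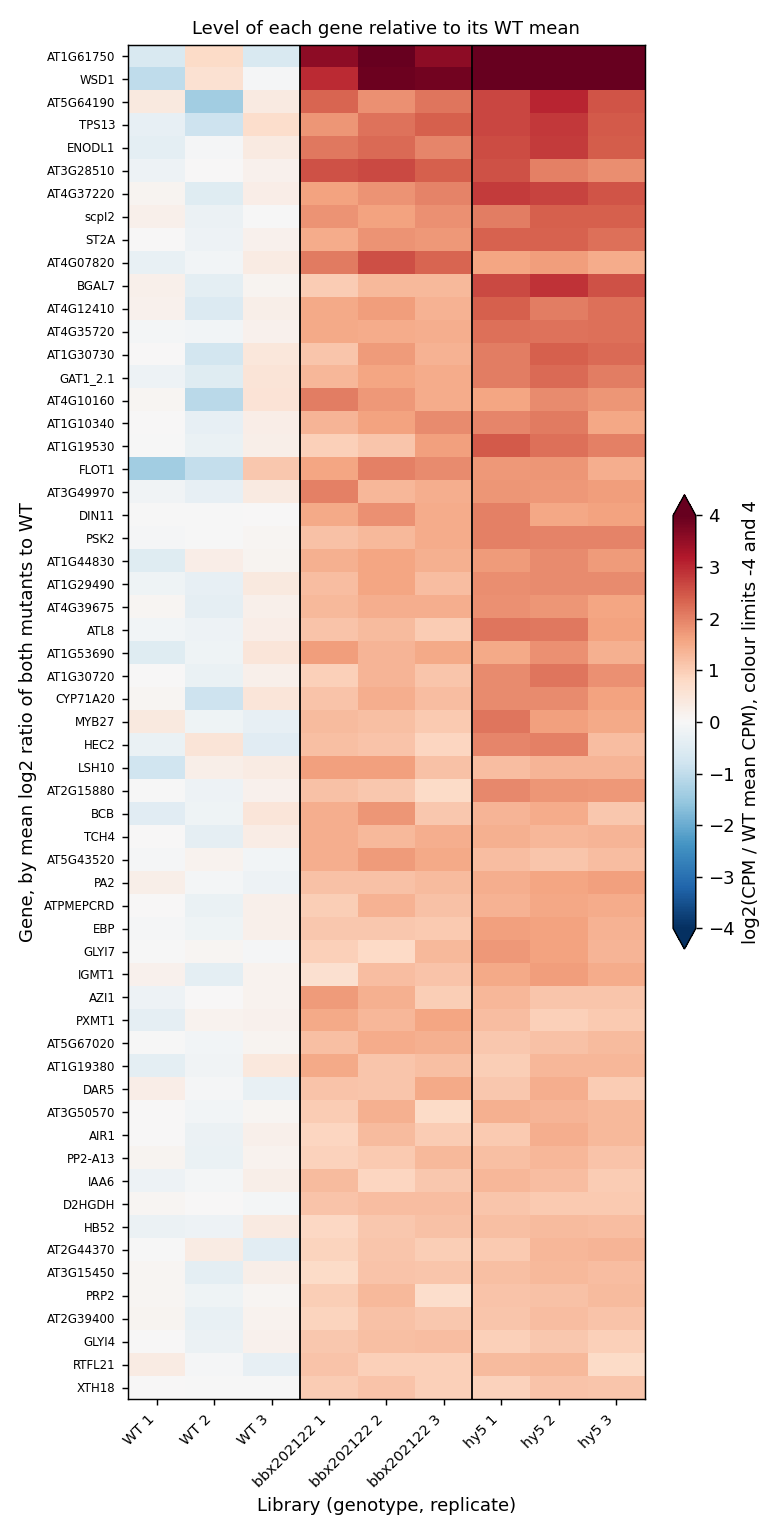
Level of each of the 59 genes (rows, ordered by the mean log2 ratio of both mutants to WT) in each of the 9 libraries (columns), as log2 of CPM over the gene's WT mean, with colours capped at -4 and 4. Both mutants' libraries lie above the WT libraries in every row, as the rule requires, and the median over genes is 1.26 to 1.36 in bbx202122 libraries and 1.49 to 1.70 in hy5 libraries.

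Most of the 59 genes were weakly expressed in WT, where 38 had a mean under 5 CPM and 5 had at least 50 CPM. Within a genotype the libraries were not alike. WT replicate 2 held the lowest WT value of 33 genes and WT replicate 3 the highest of 41, with a median log2 ratio to the WT mean of -0.18 and 0.18. The median coefficient of variation over the 3 libraries was 19.6% in WT, 13.0% in bbx202122 and 9.68% in hy5. These are not compared at like levels, since 19 genes had a mean under 5 CPM in bbx202122 and 20 in hy5, beside 38 in WT. On the length-scaled FPKM scale the highest mean over the mutant libraries was 381 for AT3G15450, followed by 263 for PRP2, 133 for GLYI4 and 113 each for AIR1 and EBP.

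The limits of the rule cut through a continuous range. Closest inside the fold were AT2G44370 with a smaller ratio of 2.00, AT3G15450 with 2.01 and GLYI4 with 2.01, and closest outside were AT3G51400 with 1.99, AT5G37950 with 1.98 and SAUR9 with 1.97. At the floor, HEC2 (1.03 CPM), AT5G64190 (1.04 CPM) and AT1G29490 (1.05 CPM) lay inside, while AT2G36110 (0.987 CPM), ATOBGM (0.949 CPM) and GSTU11 (0.904 CPM) lay outside. A further 5 genes met folds and floor with overlapping libraries: GPT2, COR15B, COR15A, CYP706A2 and AT5G36670. From 1.5-fold to under 2-fold there were 194 genes, against 59 from 2-fold on. Leaving out 1 library at a time gave 52 to 85 genes, with 85 when WT replicate 3 was left out, and a floor of 5 CPM gave 37.

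Several of the genes encode cell wall proteins. TCH4 (also XTH22) and XTH18 encode xyloglucan endotransglucosylase/hydrolases, which cut and rejoin the xyloglucan chains that tie cellulose fibres together. TCH4 was at 19.0, 14.7 and 23.0 CPM in the WT libraries, 51.3, 46.7 and 52.2 in bbx202122, and 50.8, 47.3 and 48.9 in hy5. XTH18 was at 30.7, 29.6 and 29.9 CPM in the WT libraries, 60.4, 66.8 and 58.7 in bbx202122, and 57.0, 66.4 and 64.7 in hy5. For both genes the mutant libraries overlapped each other and stood well above WT. The fitted log2 difference of hy5 from bbx202122 was 0.04 ± 0.10 (SE) for TCH4 (adjusted p = 0.827) and 0.08 ± 0.07 for XTH18 (adjusted p = 0.418), so neither difference passed the test. In the XTH family, 12 of 29 tested genes rose and 8 fell in bbx202122, and 13 rose and 9 fell in hy5. XTH24 rose by a log2 fold change of 0.92 ± 0.14 in bbx202122 (adjusted p = 0.000308) and 1.39 ± 0.14 in hy5 (adjusted p = 1.69e-06), with a bbx202122 change just short of the 2-fold limit. XTH26 fell by 1.81 ± 0.20 (adjusted p = 2.71e-05) and by 3.51 ± 0.26 (adjusted p = 6.56e-08). The median of the family was 0.09 in bbx202122 and 0.17 in hy5, beside 0.01 and 0.00 over all tested genes. The alpha-expansin list held 0 of the 59 genes. Of its 17 tested genes, 2 rose and 8 fell in bbx202122, and 4 rose and 6 fell in hy5.

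Other wall genes were PRP2, ATPMEPCRD and BGAL7. PRP2 was at 171, 145 and 170 CPM in the WT libraries, 323, 394 and 262 in bbx202122, and 359, 367 and 392 in hy5. ATPMEPCRD, a pectin methylesterase that changes the charge of wall pectin, was at 53.0, 44.2 and 60.8 CPM in the WT libraries, 105, 139 and 119 in bbx202122, and 137, 155 and 148 in hy5. The mutants' libraries overlapped in both genes. ATPMEPCRD was still called higher in hy5, by 0.34 ± 0.11 (edgeR, adjusted p = 0.0339), a call made in 9 of 16 settings. PRP2, with a difference of 0.26 ± 0.12, was not called (adjusted p = 0.124). BGAL7, a beta-galactosidase, was at 3.73, 2.46 and 3.48 CPM in the WT libraries, 6.47, 7.97 and 7.95 in bbx202122, and 20.1, 23.8 and 18.9 in hy5. Its hy5 libraries lay far above those of bbx202122, and the difference of 1.55 ± 0.12 on the log2 scale (adjusted p = 4.24e-07, all 3 hy5 libraries above) was the largest among the 59 genes. In the pectin methylesterase and inhibitor list 18 of 112 tested genes rose and 21 fell in bbx202122, and 29 rose and 30 fell in hy5. Over all tested genes 8.61% rose and 8.25% fell in bbx202122 and 19.6% rose and 19.8% fell in hy5, and the counts of this and the other lists stand against these shares.

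Proteins of the cell surface made up a further group. AIR1, a small proline-rich protein first found as auxin-induced in root cultures, was at 33.5 ± 5.0 CPM in WT on average, 70.1 ± 10.2 in bbx202122 and 81.6 ± 11.0 in hy5. AZI1, a lipid-transfer-like protein known from defence priming, was at 36.2 ± 4.1, 95.3 ± 22.8 and 82.7 ± 8.0 CPM in the same order. Neither difference between the mutants passed the test (adjusted p = 0.0965 and 0.506). The lipid transfer protein list, which does not hold AZI1, had 70 tested genes. Of these, 5 rose and 17 fell in bbx202122, and 13 rose and 39 fell in hy5. ENODL1, an early nodulin-like protein of the plastocyanin type, was at 1.73, 2.22 and 2.90 CPM in the WT libraries, 9.86, 10.9 and 8.87 in bbx202122, and 14.0, 16.0 and 12.2 in hy5. Its 3 groups did not overlap, and it was higher in hy5 than in bbx202122 by 0.58 ± 0.13 (adjusted p = 0.00528). Among 17 tested early nodulin-like and plastocyanin-like genes, 4 rose and 4 fell in bbx202122, and 7 rose and 5 fell in hy5. PA2, a secreted class III peroxidase, had ratios to WT of 2.29 and 2.94 and was higher in hy5 by 0.42 ± 0.10 (adjusted p = 0.0088, all 3 hy5 libraries above). Of 61 tested class III peroxidases, 16 rose and 18 fell in bbx202122, and 17 rose and 25 fell in hy5. AT2G15880, a leucine-rich repeat protein, had 34.0 ± 4.5 CPM in WT on average, 68.6 ± 9.2 in bbx202122 and 119 ± 7.8 in hy5. BCB, a blue copper-binding protein, and AT3G50570, a hydroxyproline-rich glycoprotein, had ratios of 2.76 and 2.13 in bbx202122 and 2.49 and 2.56 in hy5.

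Hormone-related genes included ST2A, the sulfotransferase that sulfates hydroxyjasmonate and thereby lowers active jasmonate. ST2A was at 14.3, 12.3 and 15.8 CPM in the WT libraries, 39.5, 48.8 and 47.4 in bbx202122, and 72.4, 72.9 and 65.4 in hy5. The 3 groups were fully apart, and hy5 exceeded bbx202122 by 0.70 ± 0.09 on the log2 scale (adjusted p = 5.16e-05). It was the single gene of the 59 in a list of 20 shade and PIF-regulated genes, of which 9 rose in bbx202122, and in hy5 15 rose and 1 fell. PIL1, a bHLH protein and shade marker, rose by 0.90 ± 0.13 (adjusted p = 0.000207) and 1.17 ± 0.13 (adjusted p = 3.64e-06), under the 2-fold limit in bbx202122. The list's median log2 change was 0.28 in bbx202122 and 0.56 in hy5.

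IAA6, an Aux/IAA protein that represses auxin-responsive transcription until auxin triggers its breakdown, was at 2.50, 2.73 and 3.39 CPM in the WT libraries, 6.88, 5.23 and 6.06 in bbx202122, and 7.29, 6.75 and 5.85 in hy5. The mutants overlapped, and their difference of 0.20 ± 0.14 did not pass the test (adjusted p = 0.319). Of 30 tested genes in the Aux/IAA list, which also holds ARF genes that carry an IAA synonym, 7 rose and 3 fell in bbx202122 and 13 rose and 3 fell in hy5. Without WT replicate 2 or without bbx202122 replicate 2, the bbx202122 calls dropped from 10 to 6. The SAUR genes AT4G12410 and AT1G29490, members of a family of small auxin-induced proteins, were weakly expressed. AT4G12410 was at 0.682, 0.417 and 0.715 CPM in the WT libraries, 1.72, 1.94 and 1.58 in bbx202122, and 3.18, 2.51 and 2.76 in hy5. Its groups were apart, with a difference of 0.76 ± 0.19 between the mutants (adjusted p = 0.01). AT1G29490 was at 0.409 ± 0.114 CPM in WT on average, 1.05 ± 0.15 in bbx202122 and 1.48, 1.51 and 1.53 in the hy5 libraries, and the difference between the mutants did not pass the test (adjusted p = 0.0775). In the SAUR list 12 of 64 tested genes rose and 5 fell in bbx202122, a total of 17 that was 11 with DESeq2 or without WT replicate 2, and in hy5 22 rose and 10 fell.

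Transcription factor and peptide genes were also among the 59. EBP encodes an ethylene response factor (ERF72) and was at 56.4, 52.0 and 66.9 CPM in the WT libraries, 124, 122 and 120 in bbx202122, and 184, 178 and 152 in hy5. The bbx202122 libraries hardly varied, and hy5 was higher by 0.56 ± 0.09 (adjusted p = 0.000364). In the ethylene response factor list 9 of 26 tested genes rose and 0 fell in bbx202122, or 5 called without WT replicate 1, and 14 rose and 0 fell in hy5. PSK2, a precursor of the growth-promoting sulfated peptide phytosulfokine, had 1.65 ± 0.08 CPM in WT on average, 4.15 ± 0.46 in bbx202122 and 6.57 ± 0.11 in hy5, with a difference between the mutants of 0.73 ± 0.12 (adjusted p = 0.000463). HB52, a homeodomain-leucine zipper factor, had ratios to WT of 2.04 and 2.34. MYB27 and HEC2, a bHLH factor of gynoecium and meristem development, stayed at or below 3.18 CPM in every library. Of 94 tested MYB factor genes, 11 rose and 14 fell in bbx202122, and 21 rose and 33 fell in hy5. HEC2 had the smallest gap of all 59 genes, its lowest mutant library being 1.26 times its highest WT library.

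Metabolic genes included 2 pairs of direct neighbours. TPS13, a terpene synthase that makes terpene skeletons, and CYP71A20, a cytochrome P450, lie 3910 bases apart on chromosome 4. TPS13 (chr4:7742871-7746394, minus strand) was at 0.959, 0.689 and 1.99 CPM in the WT libraries, 4.14, 5.47 and 6.36 in bbx202122, and 7.72, 8.57 and 6.59 in hy5. CYP71A20 (chr4:7750305-7753210, plus strand) was at 4.78, 2.56 and 6.34 CPM in the WT libraries, 10.1, 12.6 and 10.7 in bbx202122, and 16.9, 16.9 and 14.0 in hy5. Both genes had their highest WT value in replicate 3 and their hy5 libraries above those of bbx202122. Next to them, TPS12 and CYP71A19, a terpene synthase and a P450 of the same families, went the other way in hy5. TPS12 was at 1.83, 2.55 and 2.27 CPM in the WT libraries, 2.02, 1.99 and 3.41 in bbx202122, and 0.552, 0.449 and 0.347 in hy5, a fall of 2.2 ± 0.31 on the log2 scale in hy5 (adjusted p = 4.22e-05) and a change of 0.15 ± 0.22 in bbx202122 (adjusted p = 0.715). CYP71A19 was at 8.94, 9.59 and 10.5 CPM in the WT libraries, 5.15, 7.42 and 7.89 in bbx202122, and 3.58, 2.97 and 3.17 in hy5. It fell by 0.51 ± 0.14 in bbx202122 (adjusted p = 0.0197) and by 1.52 ± 0.16 in hy5 (adjusted p = 2.29e-06). Among 200 tested cytochrome P450 genes, 25 rose and 34 fell in bbx202122, and 49 rose and 61 fell in hy5. TPS13 overlaps the end of CYP71A19 on the other strand. It shares 22.1% of its 50-base words with other genes, above all CYP71A19, and the sources used here do not say whether counting used the strand.

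**Figure D3:**
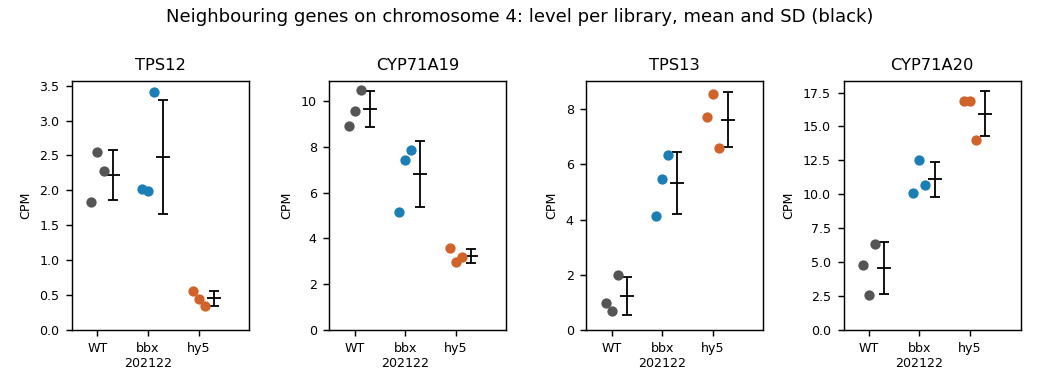
Level in CPM (vertical axis) in each library (points) of 4 neighbouring genes on chromosome 4, with the mean and SD of 3 libraries in black. TPS13 and CYP71A20 are higher in both mutants, while CYP71A19 falls from 8.94 to 10.5 CPM in WT to 2.97 to 3.58 CPM in hy5, and TPS12 is low in hy5.

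The second pair, AT1G30720 and AT1G30730, encodes FAD-binding proteins of the berberine bridge enzyme family and lies on chromosome 1 with 705 bases between the genes (chr1:10897925-10899975 and chr1:10900681-10902626, both on the plus strand). AT1G30720 was at 7.90 ± 1.26 CPM in WT on average, 17.6 ± 2.5 in bbx202122 and 30.7 ± 3.4 in hy5. AT1G30730 was at 4.27 ± 1.65, 11.5 ± 2.4 and 20.3 ± 2.6 CPM. Both were higher in hy5 than in bbx202122, by 0.87 ± 0.12 (adjusted p = 8.88e-05) and 0.89 ± 0.18 (adjusted p = 0.00217), with all 3 hy5 libraries above. AT1G30700, a gene of the same family a short way upstream, had means of 24.7, 23.4 and 22.4 CPM in WT, bbx202122 and hy5 and was called in neither mutant (adjusted p = 0.641 and 0.561). Nearer genes of the family were AT1G30710, upstream, with no listed level, and AT1G30740, downstream. The latter had means of 0.061, 0.030 and 0.061 CPM in the same order and was not tested.

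Further enzymes had their own patterns. WSD1, a wax ester synthase of the cuticle, was close to the counting limit in WT at 0.0455, 0.139 and 0.0893 CPM, which is 6 counts in all. It was at 0.724, 1.40 and 1.32 CPM in bbx202122 and 1.43, 1.64 and 2.07 in hy5. Ratios of 12.6 and 18.8 thus rest on very few WT counts. GLYI4, of the glyoxalase I family that removes methylglyoxal, was at 60.5, 51.4 and 67.7 CPM in the WT libraries, 127, 139 and 141 in bbx202122, and 117, 127 and 117 in hy5. On the CPM scale the bbx202122 libraries lay just above those of hy5, the nearest at 126.9 CPM beside 126.84 CPM. TMM scaling, with factors of 1.02 and 0.973 for these libraries, reverses their order. The difference of -0.11 ± 0.08 did not pass the test (adjusted p = 0.382). IGMT1, an indole glucosinolate O-methyltransferase, had ratios of 2.04 and 2.96, and GLYI7 of 2.05 and 2.98. D2HGDH, a hydroxyglutarate dehydrogenase, had 8.45 ± 0.45, 19.5 ± 0.6 and 17.7 ± 0.4 CPM. DIN11 was at 0.876 ± 0.015 CPM in WT on average, 2.68 ± 0.37 in bbx202122 and 2.92 ± 0.54 in hy5, and AT3G15450, an aluminium-induced protein of the asparagine synthase type close to the fold limit of the rule, at 173, 127 and 196 CPM in the WT libraries, 280, 360 and 353 in bbx202122, and 378, 406 and 385 in hy5. All 15 tested genes of the list of dark-inducible and starvation genes, which does not hold DIN11, rose in each mutant, with median log2 changes of 0.67 and 0.92, and 0 of them met the rule. ASN1, the asparagine synthetase induced in the dark, rose by 0.89 ± 0.15 in bbx202122 (adjusted p = 0.000661) and 0.92 ± 0.15 in hy5 (adjusted p = 0.000144).

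Defence-related and signalling genes differed widely in their ratios. AT1G61750, annotated as related to receptor-like kinases, was at 0.091, 0.232 and 0.0893 CPM in the WT libraries, 1.63, 2.16 and 1.62 in bbx202122, and 5.26, 4.61 and 5.20 in hy5. The WT values are 9 counts in all, so the ratios of 13.1 and 36.6 are uncertain in their denominator, while the mutants' own levels were apart by 1.54 ± 0.18 on the log2 scale (adjusted p = 2.03e-05). Of 256 tested genes in the receptor-like kinase list, 36 rose and 14 fell in bbx202122, and 52 rose and 49 fell in hy5. AT4G07820, a secreted protein of the CAP family that includes pathogenesis-related PR1, was at 0.819, 0.927 and 1.25 CPM in the WT libraries, 4.21, 5.90 and 5.05 in bbx202122, and 2.95, 3.15 and 2.81 in hy5. It was the single gene of the 59 called lower in hy5 than in bbx202122 (-0.70 ± 0.16, adjusted p = 0.00658), with all bbx202122 libraries on top. AT3G28510, an ATPase of the P-loop type, was at 1.15 ± 0.15 CPM in WT on average, 6.79, 7.25 and 6.01 in bbx202122, and 6.69, 4.70 and 4.19 in hy5. Its mutant libraries overlapped (adjusted p = 0.206). ATL8, a RING-type ubiquitin ligase of the ATL family, had 2.60 ± 0.46, 5.79 ± 0.48 and 10.2 ± 1.9 CPM and was higher in hy5 by 0.89 ± 0.15 (adjusted p = 0.000538). The serine carboxypeptidase-like gene scpl2 had 3.18 ± 0.50, 10.6 ± 0.8 and 15.5 ± 2.1 CPM and was higher in hy5 by 0.62 ± 0.11 (adjusted p = 0.000808). It shares 34.1% of its words with other genes, above all scpl1, which itself fell by 0.48 ± 0.11 in bbx202122 (adjusted p = 0.00736) and 1.30 ± 0.12 in hy5 (adjusted p = 5.82e-07). Among 36 tested serine carboxypeptidase-like genes, 5 rose and 5 fell in bbx202122, and 4 rose and 16 fell in hy5.

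A further set of genes falls outside these groups. AT1G19530, annotated as a DNA polymerase epsilon catalytic subunit, was at 21.7, 18.2 and 26.1 CPM in the WT libraries, 42.2, 47.8 and 69.3 in bbx202122, and 120, 101 and 88.9 in hy5. AT4G37220 was at 3.73, 2.46 and 4.15 CPM in the WT libraries, 10.5, 11.9 and 13.8 in bbx202122, and 24.1, 22.4 and 19.8 in hy5. Neither gene's groups overlapped, and hy5 was higher than bbx202122 by 1.03 ± 0.15 (adjusted p = 0.000219) and 0.94 ± 0.12 (adjusted p = 7.09e-05). AT4G35720, with a domain of unknown function, was steady within groups at 7.62 ± 0.87, 21.4 ± 0.3 and 34.9 ± 0.4 CPM, and was higher in hy5 by 0.78 ± 0.07 (adjusted p = 2.1e-06). AT4G39675, an uncharacterized protein, had 4.75 ± 0.93 CPM in WT on average, 12.6 ± 0.82 in bbx202122 and 15.8 ± 1.5 in hy5, and was higher in hy5 by 0.40 ± 0.11 (adjusted p = 0.0172). AT5G64190 was at 0.318, 0.0927 and 0.313 CPM in the WT libraries, 1.22, 0.856 and 1.05 in bbx202122, and 1.52, 2.01 and 1.38 in hy5, near the floor of the rule.

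The genes described next were not called between the mutants. RTFL21, of a family of small peptides that limit organ growth, had ratios to WT of 2.04 in bbx202122 and 2.19 in hy5. LSH10, of the family named after light-dependent short hypocotyls, had ratios of 2.84 and 2.50. AT3G49970, of the NPH3 family that includes phototropism signalling proteins, had ratios of 3.11 and 3.32. FLOT1, a flotillin of membrane domains, was the most variable in WT, at 0.136, 0.185 and 0.754 CPM, and lay between 0.989 and 1.44 CPM in the mutants. PXMT1, a methyltransferase, and AT5G43520, a C1 domain protein, had all bbx202122 libraries above all hy5 libraries, with differences of -0.33 ± 0.14 (adjusted p = 0.119) and -0.29 ± 0.12 (adjusted p = 0.0965). AT1G44830, an AP2-type DNA-binding protein, had 0.698 ± 0.175, 1.94 ± 0.12 and 2.37 ± 0.20 CPM. The ankyrin repeat gene AT1G10340, the DA1-related gene DAR5, the RING gene AT4G10160, the hydrolase gene AT2G39400 and the genes AT1G19380, AT1G53690, AT2G44370 and AT5G67020 had ratios of 2.00 to 3.44 in bbx202122 and 2.24 to 3.66 in hy5, and their mutant libraries overlapped.

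**Figure D4:**
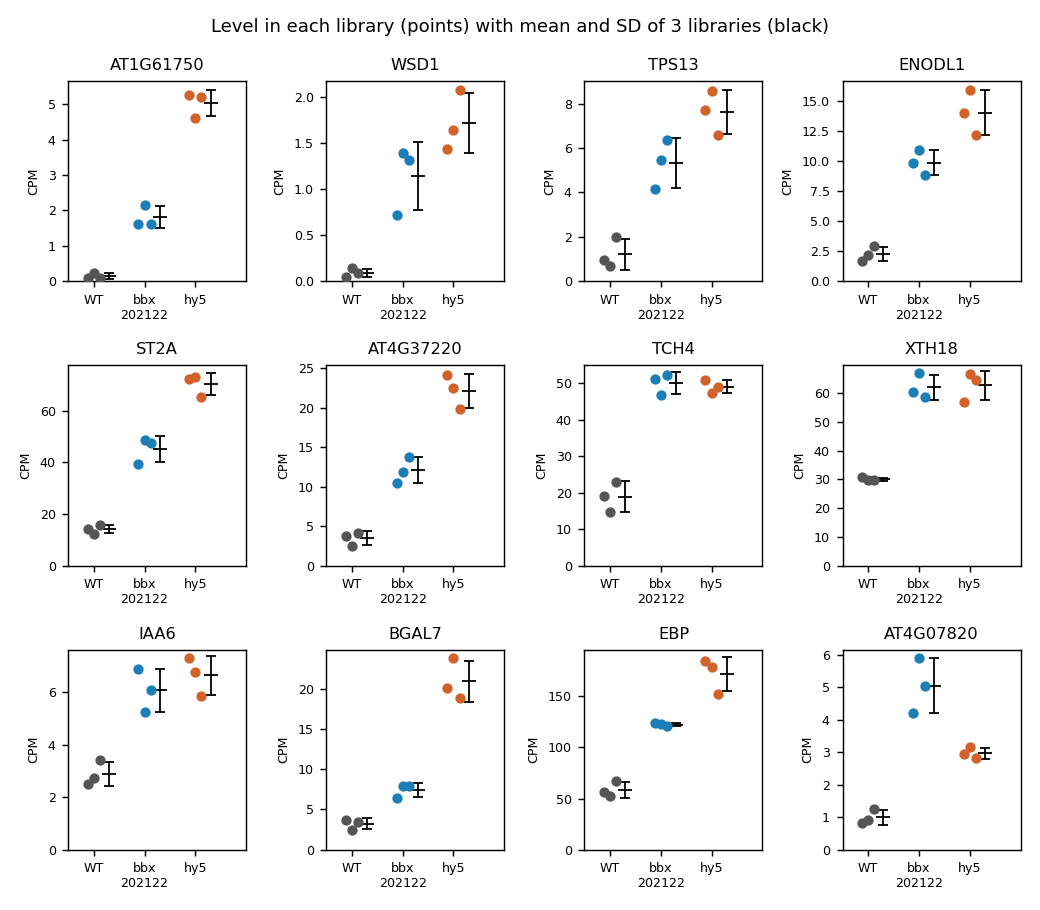
Level in CPM (vertical axis, from 0) in each library (points) of 12 of the 59 genes in WT, bbx202122 and hy5, with the mean and SD of 3 libraries in black. TCH4, XTH18 and IAA6 overlap between the mutants, ST2A, BGAL7 and EBP are higher in hy5, and AT4G07820 is higher in bbx202122 (4.21 to 5.90 CPM) than in hy5 (2.81 to 3.15 CPM).

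Tested directly, hy5 exceeded bbx202122 in 23 of the 59 genes (39.0%), bbx202122 exceeded hy5 in 1, and 35 were not called. Over all 20751 tested genes 10.9% were called higher and 12.1% lower in hy5. Those genes were not chosen by their mutant levels, so the shares are not compared like for like. The 23 genes had log2 differences of 0.34 to 1.55 (edgeR, adjusted p = 4.24e-07 to 0.0339), and in 22 of them all hy5 libraries lay above all bbx202122 libraries. The uncalled genes had differences of -0.33 to 0.76 (adjusted p = 0.0518 to 0.997), with HEC2, AT5G64190 and WSD1, all low in counts, at the upper end. The median over the 59 genes was 0.33, beside -0.01 over all tested genes. By mean CPM 44 genes were higher in hy5 and 15 in bbx202122. All hy5 libraries were above in 30 genes, all bbx202122 libraries in 5, and 24 overlapped, where 11.3% and 29.2% of tested genes were apart in these directions. On TMM-scaled levels, an alternative chosen after the data were seen, the counts were 32 and 3, beside 18.4% and 20.3%. The 194 genes from 1.5-fold to under 2-fold, a comparison also chosen later, had 71 called higher in hy5 (36.6%) and 4 lower (2.06%), with a median of 0.23, beside 39.0% and 1 gene of the 59. Without TMM scaling the share of higher calls among all called genes went from 47.4% to 27.5%, while 22 of the 59 genes were called higher and 2 lower.

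**Figure D5:**
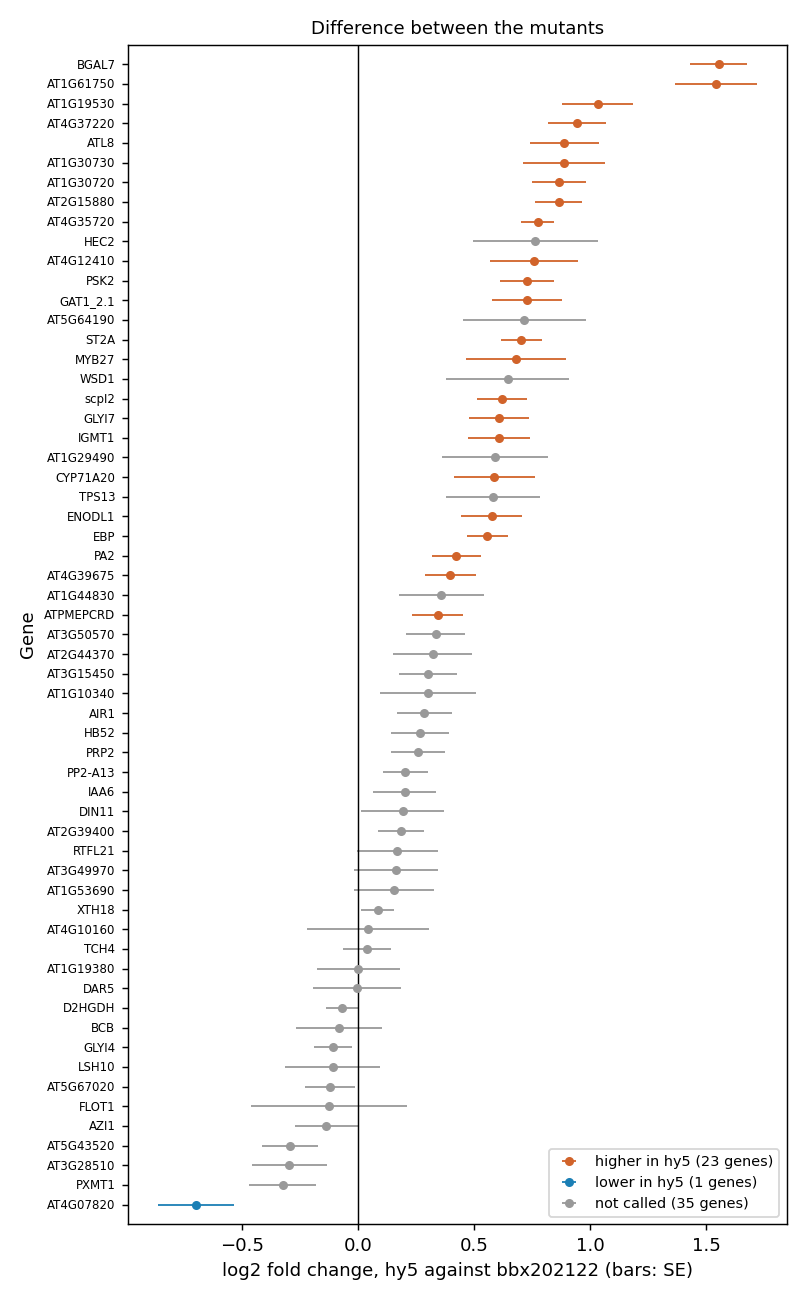
Fitted log2 fold change of hy5 against bbx202122 (horizontal axis) with its SE for each of the 59 genes, ordered by size. The 23 genes called higher in hy5 (orange) run from 0.34 to 1.55, AT4G07820 (blue) is at -0.70, and 35 genes were not called (grey).

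Which of the 59 genes were called between the mutants depended on the setting in 17 cases, while 19 were called under all 16 settings run and 23 under none. Calls of ATPMEPCRD (0.34 ± 0.11, adjusted p = 0.0339, and 0.00591 to 0.134 over the settings), CYP71A20 (0.59 ± 0.18, adjusted p = 0.025, and 0.00259 to 0.166) and MYB27 (0.68 ± 0.21, adjusted p = 0.0321, and 0.0229 to 0.167) were lost in 6 or 7 of them, DESeq2 among these. AT4G39675 (adjusted p = 0.0172, and 0.00686 to 0.0719) and AT4G12410 (0.00633 to 0.0504) also lost theirs, the latter without hy5 replicate 1 alone. TPS13, with an adjusted p of 0.0518, was called in 6 settings.

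In structure, the 59 genes had a median transcript length of 1331 bases, beside 1624 over 20622 tested nuclear genes. Their median number of exons was 2, beside 4, and 21 of them (35.6%) had a single exon, beside 16.1%. They lay on all 5 chromosomes, with 18, 7, 9, 12 and 13 on chromosomes 1 to 5. These are 30.5%, 11.9%, 15.3%, 20.3% and 22.0%, beside 26.5%, 15.1%, 19.7%, 15.3% and 23.4% of tested nuclear genes. Of the 33 lists of pathways, families and tissue markers, 12 held at least 1 of the genes, and 45 of the 59 genes were in no list. Some levels are uncertain because of other genes: 7 genes share at least 10% of their 50-base words with other genes, and 9 overlap another annotated gene. GAT1_2.1, a glutamine amidotransferase-like protein at 15.6 ± 5.8 CPM in WT on average, 42.9 ± 3.8 in bbx202122 and 67.8 ± 5.8 in hy5, was higher in hy5 than in bbx202122 by 0.73 ± 0.15 (adjusted p = 0.00303). It shares 42.1% of its words with other genes. AIR1 shares 35.0% with other genes, above all AT4G12555, which had a mean of 0.479 CPM in WT and 0 in both mutants. PP2-A13 shares 33.2% with other genes, above all PEX11E. Another 39 genes share no word with another gene, among them TCH4, IAA6, EBP and BGAL7.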

How the data were processed

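Poly(A) RNA of 9 libraries was measured. Per the submitters' processing notes, the authors' tools were RSEM 1.2.12, Bowtie2 2.2.5 and HISAT of unstated version, on the build TAIR10, in an order and roles that are not stated. The deposited files hold expected counts per gene, not scaled, and FPKM values normalised by the authors to length and depth. Deposited transcript lengths, averaged over libraries, were used only for the median transcript lengths given above. Files list genes from an FPKM of 0.01, and absent genes count as 0.

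CPM for the rule is each expected count over its library's sum. For tests, expected counts were rounded and fitted with edgeR 4.0.16 (R 4.3.3) with TMM scaling, filterByExpr and 1 mean per genotype over 9 libraries. This left 20751 genes, including all 59, at a common dispersion of 0.0041 with 6 residual degrees of freedom. The two-sided quasi-likelihood F test was adjusted by Benjamini-Hochberg over all tested genes, and a gene is called under 0.05. The SE is the fold change over the root of F. Alternatives were DESeq2 1.42.0, limma 3.58.1 on log2(FPKM + 1), no TMM, no filter, a replicate block, the 6 mutant libraries alone and leaving out each library.

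The genes, lists and tests were chosen with earlier results of these data known. Genes named in detail are the 10 largest mean ratios, the 5 highest FPKM, the 5 largest called differences between the mutants each way, up to 6 per list and the 3 nearest each side of the fold limit; others were named after their values were seen. Coordinates and promoters are from TAIR10.1. Counting floors cover counting error only.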

Additional observations from a re-analysis of the deposited data

How the results depend on the processing

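The number of genes that met the rule, 59, became 37 with a floor of 5 CPM, 253 at 1.5-fold and 14 at 3-fold. It was 57 with TMM-scaled CPM (56 shared), 56 on FPKM (52 shared), 72 with a floor of 0.5 CPM, 64 with no separation of libraries, and 52 to 85 when 1 library was left out. Of the 59, 20 to 28 were called between the mutants without 1 library, 19 to 27 of them higher and 1 to 2 lower in hy5. The count lower in hy5 was 2 with library size only, 2 with limma on FPKM and 2 without bbx202122 replicate 3 or hy5 replicate 1. All genes called numbered 2236 to 3482 for bbx202122 against WT, lowest without WT replicate 2, where all libraries gave 3499; 6648 to 8440 for hy5 against WT; and 3330 to 4867 between the mutants. With library size only, higher calls in hy5 against WT went from 49.7% to 38.2% of calls. Deviations from the genotype means had correlations of -0.079 to 0.139 between same-numbered libraries. Between bbx202122 and hy5 these were 0.139, 0.072 and 0.037, while differently numbered libraries of these mutants had -0.091 to 0.029. With 3 libraries per genotype, such values cannot decide whether the numbers pair the samples. With the replicate block 25 of the 59 genes were called between the mutants, 24 higher and 1 lower. All genes called were then 4445 between the mutants, 3143 for bbx202122 and 7884 for hy5 against WT. For 28 named genes 386 of 420 alternative values had the same call, 20 lost it, 14 gained it and 0 changed sign while called. AAAATATCT lay in 0 of the 59 promoters when the 50 bases after the start were left out. Depth limits WSD1, AT1G61750 and AT5G64190 most, with 6, 9 and 16 counts over WT.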
